A study of Rattus norvegicus with 36 samples.

Results

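The DNA replication and nucleotide synthesis genes are 44 rat genes named by what their products do: loading and firing replication origins, copying DNA, supplying deoxynucleotides and rebuilding chromatin on the daughter strands. They were chosen by function and not by a measured value, although earlier results of these data were known. Of the 44, 41 were measured among 14217 genes in all. Cdc6, Gins2 and Rrm2 had no probe set annotated to 1 gene symbol and were not analysed here. Expression was measured on 36 Affymetrix rat arrays as the log2 intensity of robust multi-array average (RMA) values, so that a difference of 1 is a 2-fold change.

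The mucosa arrays came from male Fischer 344 rats that were 120 days old at the start. Vocal fold (VF) mucosa was surgically stripped on both sides and collected 3 days, 14 days or 60 days after injury (post-injury, PI), with 5 arrays at each time, from rats aged 123, 134 and 180 days. Uninjured rats of the same 3 ages served as controls, with 3, 3 and 2 arrays. Each mucosa array held RNA pooled from both VFs of 4 rats, so the spread between arrays is that between pools. The cultured cells were VF fibroblasts (VFF) grown from explants of 1 rat each, aged 180 days, in medium with 10% FBS and harvested at passage 1. They comprised scar VFF from rats at 60 days PI without siRNA (n = 4), naive VFF from uninjured rats (n = 3), scar VFF given 50 nM gp46 siRNA (n = 3) and scar VFF given 50 nM scramble siRNA (n = 3). gp46 is the collagen chaperone encoded by Serpinh1. Untreated cultures were collected at 80% confluence, whereas the siRNA cultures received siRNA for 1 h at that confluence and then grew for 24 h more in fresh medium.

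A replication origin is licensed in G1 phase, when the origin recognition complex and Cdt1 load the ring of Mcm2 to Mcm7 onto DNA. In S phase Cdc45 and the GINS proteins turn the ring into a moving helicase, primase starts each strand, and polymerases epsilon and delta copy the leading and lagging strands behind the sliding clamp Pcna. Most of these genes are targets of E2F transcription factors, which are released when cells commit to division, and their mRNAs are therefore read as marks of cells preparing for or passing through S phase. In healing mucosa dividing epithelium, fibroblasts, endothelium and muscle precursors can all express them.

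Marker genes separated tissue from culture. The mean of 6 epithelial markers lay between 12.38 and 13.32 on the mucosa arrays and between 5.53 and 5.90 on the fibroblast arrays, where the mean of 8 fibroblast markers was 12.73 to 13.23. Markers of myoblasts were uneven among the cultures: their mean over 4 genes ranged from 5.92 to 10.98 on scar VFF arrays and from 5.79 to 8.94 on naive VFF arrays. Across all genes, the deviations from their group means correlated between replicate 5 of the 3-day PI group and replicate 4 of the 60-day PI group (Pearson's r = 0.60), and each correlated with replicate 3 of the 14-day controls (r = 0.61 and 0.45). Member counts are therefore also given without these 3 arrays.

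At 3 days PI the replication genes rose almost throughout (limma, Benjamini-Hochberg adjusted p under 0.05 over all genes). Of 41 members, 34 were higher in PI than in control mucosa (82.9%) and 0 were lower, whereas 14.6% of all genes tested were called higher and 12.0% lower. The median log2 fold change was 0.74 over the members and 0.01 over all genes. The PI and control arrays did not overlap, with PI higher, for 32 members (78.0%) and for 17.7% of all genes. In whole mucosa a larger share of dividing cells and more mRNA per cell cannot be told apart. Without the 3 arrays that deviated together, 37 members were called and the median was 0.79.

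**Figure D1:**
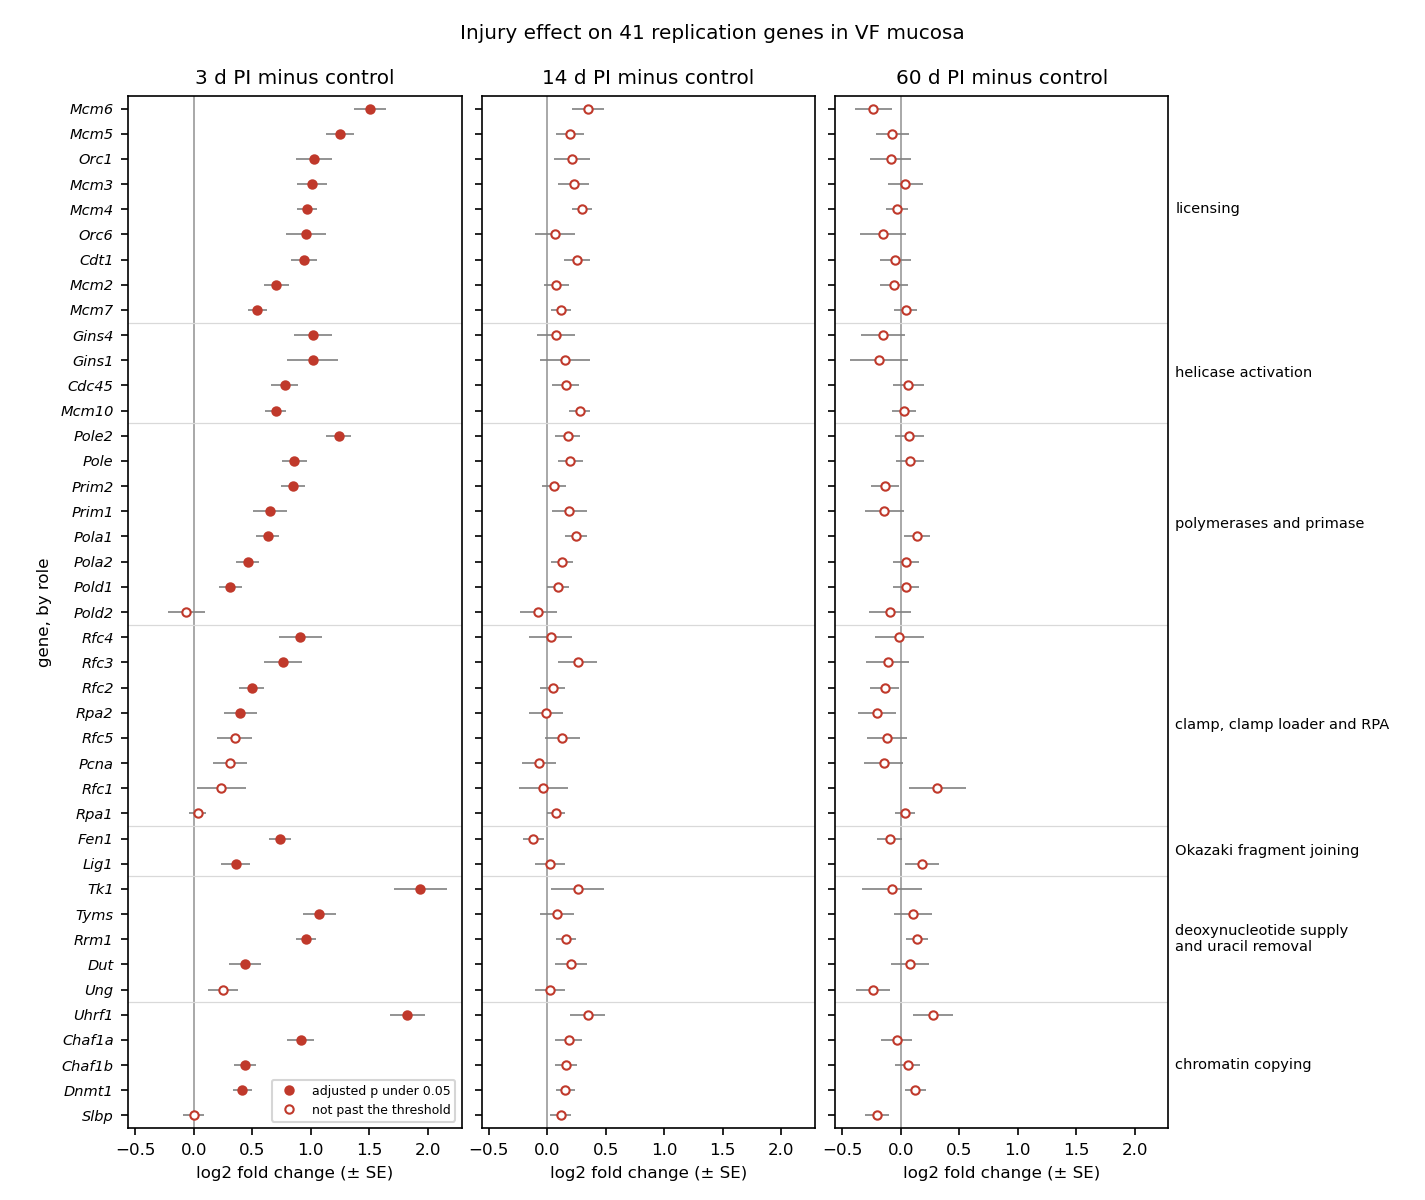
Log2 fold change (PI minus control, ± SE of the fit) of the 41 measured replication genes, grouped by role and ordered by the 3-day effect, at 3, 14 and 60 days PI. Filled points passed an adjusted p of 0.05: 34 at 3 days, 0 at 14 days and 0 at 60 days.

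All 9 licensing genes measured rose at 3 days PI, by a median log2 fold change of 0.97. Mcm6, a subunit of the MCM ring, had values of 9.68, 9.59, 9.57, 9.80 and 9.54 in PI mucosa, against 7.84, 8.52 and 8.04 in control mucosa. Every PI array stood more than 1 log2 unit above the highest control, and the fold change was 2.84 (log2 1.50 ± 0.14 SE, adjusted p = 5.7e-08). Mcm5, another subunit of the ring, gave 8.45, 8.36, 8.33, 8.49 and 8.40 in PI mucosa, against 6.92, 7.43 and 7.12 in controls, a 2.38-fold difference (log2 1.25 ± 0.12, adjusted p = 1.35e-07). The PI values lay closer together than the controls. Orc1, the largest subunit of the origin recognition complex, stood at 5.12, 4.27, 4.72, 5.08 and 4.95 in PI mucosa, against 3.69, 3.88 and 3.82 in controls (log2 1.03 ± 0.15, adjusted p = 3.69e-05). The other 6 licensing genes (Mcm2, Mcm3, Mcm4, Mcm7, Cdt1 and Orc6) rose by log2 values between 0.54 for Mcm7 and 1.01 for Mcm3.

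The promoters of Mcm2, Mcm5, Mcm6, Mcm7 and Tyms are shown as examples. These members all rose at 3 days PI and hold the 8-letter words that E2F factors are known to bind. The sequences are from RefSeq on GRCr8 and run 5′ to 3′ over the 250 bases before the annotated start. Capitals mark the words TTTGGCGC, TTTCCCGC, TTTCGCGC and TTTGCCGC on either strand, and overlapping words merge into 1 run of capitals.
Mcm2 promoter, chr4:122918095-122918344, minus strand: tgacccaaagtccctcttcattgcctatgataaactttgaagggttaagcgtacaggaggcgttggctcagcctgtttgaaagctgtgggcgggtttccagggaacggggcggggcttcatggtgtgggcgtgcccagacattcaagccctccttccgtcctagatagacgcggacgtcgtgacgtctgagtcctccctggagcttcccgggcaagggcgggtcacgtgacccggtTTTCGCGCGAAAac
Mcm5 promoter, chr19:13488563-13488812, plus strand: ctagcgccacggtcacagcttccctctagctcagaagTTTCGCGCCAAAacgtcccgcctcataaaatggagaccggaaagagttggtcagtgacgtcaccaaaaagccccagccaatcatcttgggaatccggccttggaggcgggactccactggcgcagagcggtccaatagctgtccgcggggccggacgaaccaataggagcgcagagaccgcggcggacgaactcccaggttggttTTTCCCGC
Mcm6 promoter, chr13:42404353-42404602, minus strand: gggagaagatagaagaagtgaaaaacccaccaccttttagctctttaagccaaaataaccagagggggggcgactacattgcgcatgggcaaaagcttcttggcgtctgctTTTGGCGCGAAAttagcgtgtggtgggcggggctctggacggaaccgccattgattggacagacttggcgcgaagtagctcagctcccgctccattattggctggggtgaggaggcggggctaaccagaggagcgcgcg
Mcm7 promoter, chr12:22163179-22163428, minus strand: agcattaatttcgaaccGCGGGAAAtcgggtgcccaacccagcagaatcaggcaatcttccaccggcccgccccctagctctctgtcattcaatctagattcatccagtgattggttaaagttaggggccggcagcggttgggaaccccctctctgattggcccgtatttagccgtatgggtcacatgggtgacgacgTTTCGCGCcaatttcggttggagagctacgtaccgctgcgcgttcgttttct
Tyms promoter, chr9:120776084-120776333, minus strand: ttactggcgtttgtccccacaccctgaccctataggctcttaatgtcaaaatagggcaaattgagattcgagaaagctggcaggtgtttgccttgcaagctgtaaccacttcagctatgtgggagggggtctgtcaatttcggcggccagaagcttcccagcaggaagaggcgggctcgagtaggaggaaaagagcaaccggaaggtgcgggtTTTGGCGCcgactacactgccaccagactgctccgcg

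RefSeq windows were matched to 39 of the 44 members (42 windows, since a few genes have several starts). Orc1, Mcm4, Gins4, Cdc6 and Rrm2 had no window. At least 1 of the 4 words stood in 10 of the 42 windows (23.8%), against 580 of all 33469 windows of the same length (1.73%) and 2.84% of the windows of genes on the array. The windows of Mcm3 and Mcm10, which also rose, held none. Besides the 5 genes printed, the members with a word were Gins1, Pola1, Slbp, Uhrf1 and Ung. Of these, Gins1, Pola1 and Uhrf1 were also called higher at 3 days PI. Gins1, Mcm2, Mcm5 and Mcm6 each held a pair of overlapping words, 1 on each strand. The first base of the pair lay at -25, -14, -213 and -139 from the start. The NF-Y word CCAAT, on either strand, stood in 54.8% of member windows, 34% of all windows and 34.6% of the windows of genes on the array. TATAAA stood in 0 of 42 member windows, 12.9% of all windows and 8.03% of the windows of genes on the array. The median log2 fold change at 3 days PI was 0.86 over the 10 members with an E2F word and 0.67 over the 28 measured members with a window and none. A match is a description of the letters, and the absence of a word in this window leaves the gene's regulation undescribed.

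The 4 measured genes of helicase activation (Cdc45, Gins1, Gins4 and Mcm10) also rose at 3 days PI. Gins4, a subunit of the GINS complex, had values of 9.08, 9.15, 9.21, 9.20 and 8.45 in PI mucosa, against 8.01, 8.19 and 7.79 in controls (2.03-fold, log2 1.02 ± 0.17, adjusted p = 8.79e-05). The lowest PI value was that of replicate 5, which still exceeded every control. In Gins1 that array fell among the controls, with 7.02 against 6.39, 7.10 and 6.57, while the other 4 PI arrays lay between 7.70 and 8.05 (log2 1.02 ± 0.22, adjusted p = 0.00135).

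Among the polymerases and primase, 7 of 8 members rose at 3 days PI. Pole2, a subunit of the leading-strand polymerase epsilon, was at 7.28, 7.41, 7.78, 7.83 and 7.59 in PI mucosa, against 6.38, 6.53 and 6.12 in controls (2.36-fold, log2 1.24 ± 0.11, adjusted p = 3.32e-08). The catalytic subunit Pole rose by 0.86 and both primase subunits rose, Prim1 by 0.65 and Prim2 by 0.85. The lagging-strand polymerase delta moved less. Its catalytic subunit Pold1 rose by 0.31 (adjusted p = 0.0196), a call lost without 3-day control replicate 1 (adjusted p = 0.086) or replicate 3 (adjusted p = 0.0805). Its partner Pold2 was at 8.83, 8.67, 8.53, 8.70 and 8.27 in PI mucosa, against 8.70, 8.59 and 8.69 in controls, so the groups overlapped (log2 -0.06 ± 0.16, adjusted p = 0.814).

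**Figure D2:**
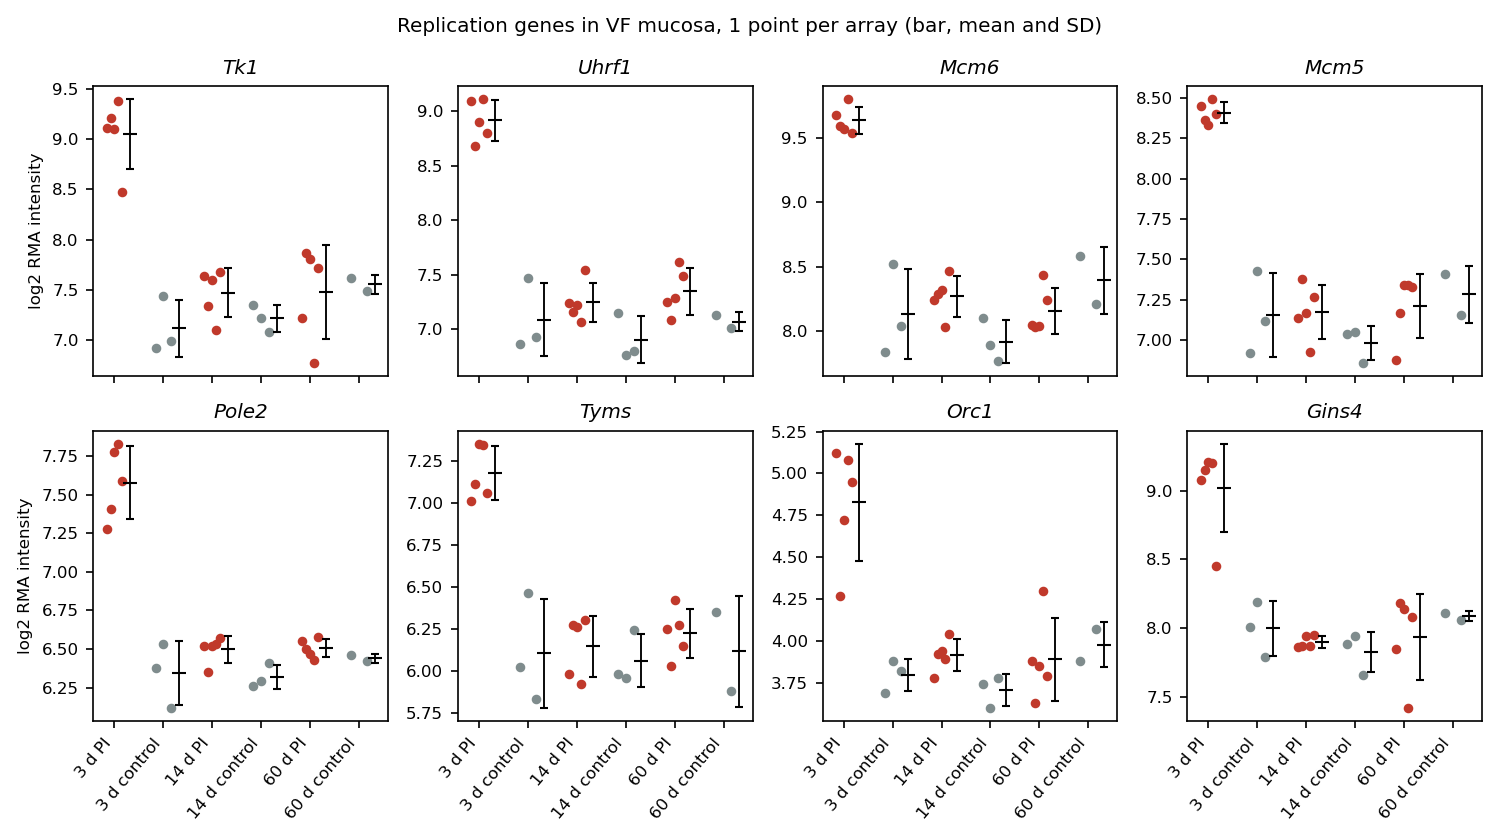
Log2 RMA intensity of the 8 members with the largest change at 3 days PI, 1 point per mucosa array, with the group mean and SD beside the points (n = 5 PI arrays at each time; n = 3, 3 and 2 control arrays). The 3-day PI arrays stand above every other mucosa array in each panel except Orc1, with Mcm6 at 9.54 to 9.80.

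The clamp, its loader and the single-strand binding protein RPA had the lowest share of calls among the role groups, with 4 of 8 members higher. Rfc4 (log2 0.91), Rfc3 (0.76), Rfc2 (0.49) and Rpa2 (0.40) passed the threshold. Rfc1, Rfc5, Rpa1 and Pcna did not on the probe sets used. A dimmer Rfc5 probe set, with a mean of 9.08 against 9.69 for the one used, rose by 0.47 (adjusted p = 0.0088). Pcna, the sliding clamp and a common marker of proliferation, was at 12.25, 12.21, 12.20, 12.27 and 12.00 in PI mucosa, against 11.75, 12.09 and 11.79 in controls (log2 0.31 ± 0.15, adjusted p = 0.133). Replicate 5 was the only PI array below the highest control. The call for Pcna was gained when 60-day PI replicate 4 alone was left out of the shared fit (adjusted p = 0.0134), with the same log2 fold change of 0.31. Leaving out that array also brought Rfc5 (0.35, adjusted p = 0.0259) and Ung (0.25, adjusted p = 0.0194) past the threshold. Rpa1, the largest RPA subunit, had values of 9.59 to 9.76 in PI mucosa, against 9.60 to 9.67 in controls (log2 0.03 ± 0.08, adjusted p = 0.812).

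Of the genes that finish the lagging strand, the flap nuclease Fen1 rose by 0.74 (adjusted p = 4.28e-06). The DNA ligase Lig1 rose by 0.36 (adjusted p = 0.038) with overlapping groups, 9.43 to 9.79 in PI mucosa and 9.10 to 9.50 in controls. A dimmer Lig1 probe set gave 0.20 (adjusted p = 0.457). Several alternatives also lost the Lig1 call, among them the mean of probe sets (adjusted p = 0.12), median centring (0.0787) and the lognormal-normal model. The Lig1 call was lost without 3-day PI replicate 1, 2 or 5 (adjusted p of 0.0837, 0.0641 and 0.0631) and without 3-day control replicate 1 (0.201) or 3 (0.137). The call for Rpa2 (adjusted p = 0.0448) was close to the threshold and held in 6 of 23 fits that left out 1 mucosa array, with the highest adjusted p of 0.141 without 3-day control replicate 3.

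Deoxynucleotide supply held the largest value on the probe sets used, that of Tk1. Tk1, the thymidine kinase that salvages thymidine in S phase, had values of 9.11, 9.21, 9.10, 9.38 and 8.47 in PI mucosa, against 6.92, 7.44 and 6.99 in controls. The lowest PI array, replicate 5, was still more than 1 log2 unit above the highest control, and the fold change was 3.83 (log2 1.94 ± 0.22, adjusted p = 1.35e-06). A brighter Tk1 probe set, with a mean of 8.64 against 8.26 for the one used, gave a smaller rise of 1.155 (adjusted p = 1.33e-06), which is below the values of Uhrf1, Mcm6 and Mcm5. Another set, of low signal, gave 0.22 (adjusted p = 0.216). Tyms, which makes thymidylate from deoxyuridylate, was at 7.01, 7.11, 7.35, 7.34 and 7.06 in PI mucosa, against 6.02, 6.46 and 5.83 in controls (2.1-fold, log2 1.07 ± 0.14, adjusted p = 8.56e-06). Rrm1, the large subunit of ribonucleotide reductase, rose by 0.96 ± 0.08 (adjusted p = 2.58e-08), with 9.56 to 9.70 in PI mucosa and 8.55 to 8.77 in controls. Dut, which hydrolyses dUTP and so keeps uracil out of DNA, rose by 0.43 (adjusted p = 0.0238), and its other, dimmer probe set gave -0.35 (adjusted p = 0.123). The Dut call was lost without 3-day PI replicate 1 (adjusted p = 0.0501) or 4 (0.0565) or 3-day control replicate 1 (0.0508) or 3 (0.116). Ung, the glycosylase that removes uracil from DNA, gave 0.25 ± 0.13 (adjusted p = 0.155), although its 5 PI arrays (9.51 to 9.73) all exceeded the 3 controls (9.34 to 9.39).

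Among the genes that copy chromatin, Uhrf1 rose most. Uhrf1, which recruits Dnmt1 to hemimethylated DNA, had values of 9.09, 8.68, 8.90, 9.11 and 8.80 in PI mucosa, against 6.86, 7.47 and 6.93 in controls (3.54-fold, log2 1.83 ± 0.15, adjusted p = 1.17e-08). The maintenance methyltransferase Dnmt1 itself rose by 0.41 (adjusted p = 0.000665). The chromatin assembly factor subunits Chaf1a and Chaf1b rose by 0.92 and 0.44. Slbp, which binds the stem-loop of histone mRNAs, had a log2 fold change of -0.001 ± 0.09 on the probe set of median intensity, whose mean was 4.48, near the low end of the scale. A brighter Slbp probe set, with a mean of 7.88, rose by 0.80 (adjusted p = 0.00489), so the gene's result rests on the choice of probe set.

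Other genes of the S phase programme moved with the members at 3 days PI. Of 24 measured S phase cyclins, kinases, inhibitors and E2F genes, 15 were called higher and 2 lower, led by Ccna2, the S phase cyclin A, at log2 2.52 (adjusted p = 4.72e-09), E2f8 at 2.03, E2f7 at 1.54 and Ccne2, a cyclin E, at 1.37. Of 16 mitotic genes 14 rose (median log2 fold change 1.63), with Cdk1, the mitotic kinase, at 2.48. The accessory origin and fork genes moved less: 9 of 23 rose and 1 fell (median 0.17), with Timeless, of the fork protection complex, at 0.83 and Donson at 0.82.

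Nucleotide synthesis beyond the members was mixed at 3 days PI. In the de novo purine, pyrimidine and folate list 6 of 22 genes rose and 2 fell, with Shmt2, the mitochondrial serine hydroxymethyltransferase, at log2 0.63 (adjusted p = 1.95e-05) and Adss1, the muscle adenylosuccinate synthetase, at -0.74 (adjusted p = 0.00359). In nucleoside salvage and breakdown 3 of 14 rose: Upp1 by 0.92, Dctd, which makes deoxyuridylate for Tyms, by 0.73, and Uck2 by 0.67. Mitochondrial DNA replication showed 1 gene higher and 2 lower of 10 (median -0.03), with Dguok, the mitochondrial deoxyguanosine kinase, at -0.69 and the polymerase Polg at 0.37.

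Cell type markers also moved at 3 days PI. All 4 myoblast markers rose, with Mymk at log2 5.33, and their mean was 9.16 to 9.98 on PI arrays and 6.13 to 6.64 on control arrays. Of 6 neutrophil markers 5 rose (list mean 6.61 to 8.54 in PI mucosa, 5.77 to 6.66 in controls), and of 8 fibroblast markers 5 rose (12.40 to 12.50 in PI mucosa, 11.68 to 11.83 in controls). Of 5 endothelial markers 2 rose (9.36 to 9.58 in PI mucosa, 9.05 to 9.24 in controls), as did 1 of 8 macrophage markers (10.27 to 11.06 in PI mucosa, 10.10 to 11.18 in controls). In epithelium 2 of 6 rose and 1 fell (12.38 to 12.82 in PI mucosa, 12.62 to 13.04 in controls), and 0 of 6 lymphocyte markers were called. The part of these cell types in the replication result was not tested.

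At 14 days PI no member passed the threshold (limma, 0 of 41, against 3.03% of all genes called in either direction). At an unadjusted p under 0.05 there were 6 members (12.8% of all genes), and the lognormal-normal model also called 0. The median log2 fold change was 0.15 over the members and 0 over all genes, and it was positive for 36 of 41. The groups did not overlap, with PI higher, for 9 members (22.0%, against 7.94% of all genes): Cdt1, Mcm4, Mcm10, Cdc45, Prim1, Rfc3, Dut, Chaf1a and Chaf1b. Mcm4 was at 9.62, 9.66, 9.56, 9.44 and 9.73 in PI mucosa, against 9.35, 9.31 and 9.26 in controls (log2 0.30 ± 0.08, adjusted p = 0.062). It passed without 14-day PI replicate 4 (adjusted p = 0.0338), 3-day control replicate 2 (0.0378) or 60-day PI replicate 4 (0.0264).

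Mcm6 and Uhrf1 had the largest 14-day differences. Mcm6 was at 8.24, 8.29, 8.32, 8.03 and 8.47 in PI mucosa, against 8.10, 7.89 and 7.77 in controls (log2 0.35 ± 0.14, adjusted p = 0.227). Uhrf1 was at 7.24, 7.16, 7.22, 7.07 and 7.54 in PI mucosa, against 7.15, 6.76 and 6.80 in controls (log2 0.35 ± 0.15, adjusted p = 0.301). In both genes 1 control array lay above the lowest PI array. With array weights in the fit 8 members were called at this time, Mcm6 among them (adjusted p = 0.00699). Among the cell cycle genes measured, the inhibitors Cdkn1a (log2 1.02, adjusted p = 0.00214) and Cdkn1c (0.74, adjusted p = 0.0102) rose at 14 days, as did the mitotic kinase Aurkb (1.07, adjusted p = 0.023), the only 1 of 16 mitotic genes called. Of 4 myoblast markers 3 remained higher at 14 days.

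At 60 days PI 0 of 41 members were called by limma (0.0563% of all genes were called in either direction) and 0 reached an unadjusted p under 0.05 (8.99% of all genes), with 0 by the lognormal-normal model. The median log2 fold change was -0.03 over the members and -0.03 over all genes, and no member had separate groups (4.40% of all genes were higher and 7.96% lower without overlap). Rfc1, the large subunit of the clamp loader, was at 8.59, 8.37, 8.62, 9.40 and 8.28 in PI mucosa, against 8.37 and 8.31 in controls (log2 0.31 ± 0.24, adjusted p = 0.762). The high value was that of 60-day PI replicate 4. Uhrf1 was at 7.25, 7.08, 7.29, 7.62 and 7.49 in PI mucosa, against 7.13 and 7.01 in controls (log2 0.28 ± 0.17, adjusted p = 0.712). The controls at this time were 2 arrays, which limits the precision of the 60-day differences. The study's methods give another split of PI and control arrays at this time, so the group membership followed here is uncertain as well.

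The injury effect itself changed with time. It was larger at 3 than at 14 days for 22 of 41 members (interaction contrast, adjusted p under 0.05; 5.47% of all genes were called in this direction) and larger at 3 than at 60 days for 27 (8.70% of all genes). Both contrasts use the 3-day PI and control arrays. Without the 3 arrays that deviated together the counts were 31 and 33. All 9 licensing genes were among those called in each reported fit. The 3- against 14-day calls for Mcm7, Orc1, Orc6 and Mcm2 were lost in some fits that left out 1 array. For Mcm7 the adjusted p was 0.094 without 3-day control replicate 1. The 3- against 60-day call for Mcm7 was lost without 60-day control replicate 1 (adjusted p = 0.117). Tk1 differed by log2 1.68 ± 0.32 between the 3- and 14-day effects (adjusted p = 0.00168) and by 2.01 ± 0.34 between the 3- and 60-day effects (adjusted p = 0.000413). On the brighter Tk1 probe set these differences were 0.93 and 1.08, both past the threshold. Uhrf1 differed by 1.48 ± 0.21 (adjusted p = 0.000105) and 1.55 ± 0.23 (adjusted p = 9.11e-05), and Mcm6 by 1.15 ± 0.19 (adjusted p = 0.000612) and 1.74 ± 0.21 (adjusted p = 1.01e-05). Between 14 and 60 days 0 members differed by limma (0.0774% of all genes), with 3 at an unadjusted p under 0.05 (7.14% of all genes). Mcm6 had the largest 14- to 60-day difference, 0.58.

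Compared among themselves, the PI groups differed for 35 members (F test, adjusted p under 0.05; 38.5% of all genes), and each of the 35 had its highest PI mean at 3 days. Across the 3 control ages 0 members differed by limma (0.0141% of all genes), with 1, Mcm6, at an unadjusted p under 0.05 (6.70% of all genes). The mean over the 41 members was 8.49 to 8.80 on 3-day PI arrays and 7.81 to 8.08 on every other mucosa array.

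**Figure D3:**
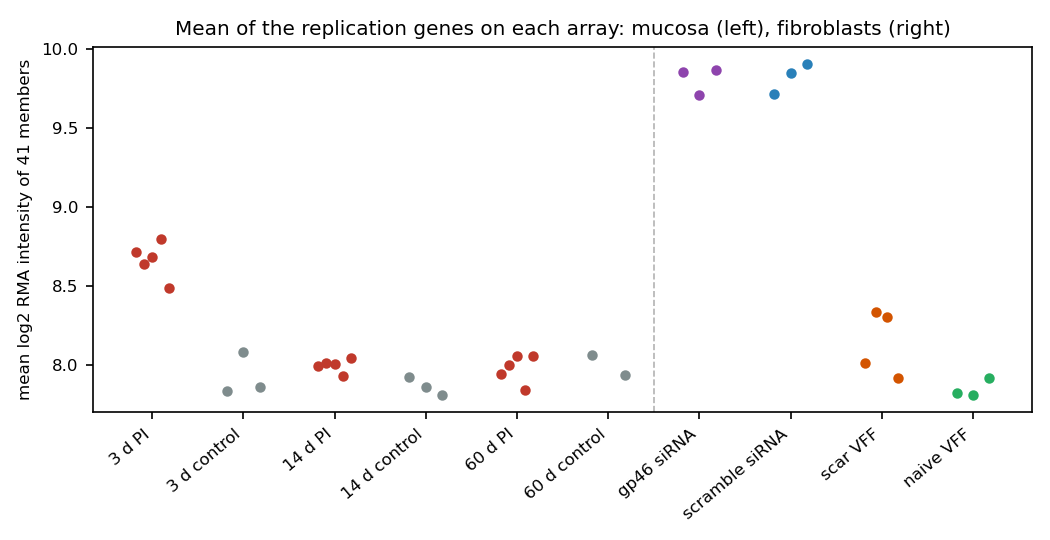
Mean log2 RMA intensity of the 41 members on each of 36 arrays, 1 point per array, with mucosa groups to the left and fibroblast groups to the right of the dashed line. The 3-day PI arrays (8.49 to 8.80) lie above the other mucosa arrays, and the siRNA cultures (9.71 to 9.91) lie above every other array.

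In culture, scar VFF showed a higher level than naive VFF for 37 of 41 members, but 4 were called (9.76%; 2.63% of all genes were called higher) and the median log2 fold change was 0.20. With the arrays of these 2 groups alone 0 were called, and with the replicate block 0. At an unadjusted p under 0.05 there were 15 members (36.6%, against 20.8% of all genes), and the groups did not overlap, with scar higher, for 8 (19.5%, against 9.96%). Uhrf1 was at 6.99, 8.22, 8.30 and 6.37 in scar VFF, against 5.42, 5.21 and 5.82 in naive VFF (3.96-fold, log2 1.99 ± 0.39, adjusted p = 0.0162). The groups did not overlap, and scar replicates 2 and 3 stood well above replicates 1 and 4. Pold2 was at 9.01, 8.85, 9.09 and 8.84 in scar VFF, against 8.26, 8.27 and 8.51 in naive VFF (log2 0.60 ± 0.11, adjusted p = 0.0132). This delta subunit was the member called here that had not been called in mucosa at 3 days PI. Chaf1b was at 8.02, 8.47, 8.23 and 8.30 in scar VFF, against 7.72, 7.65 and 7.88 in naive VFF (log2 0.50 ± 0.10, adjusted p = 0.0162). Cdc45 was at 7.07, 7.36, 7.17 and 6.93 in scar VFF, against 6.67, 6.72 and 6.75 in naive VFF (log2 0.42 ± 0.11, adjusted p = 0.0495). The Cdc45 call held in 2 of 13 fits that left out 1 fibroblast array, and 0 members were called without naive replicate 1 or naive replicate 2. Without scar replicate 4, the culture with the lowest values of most members, 12 members were called.

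The untreated scar cultures spread more widely than the naive cultures in Mcm6 and Tk1. Mcm6 was at 7.95, 8.79, 8.92 and 7.50 in scar VFF, against 7.29, 7.30 and 7.62 in naive VFF, and Tk1 at 7.76, 8.65, 8.78 and 7.81, against 7.67, 7.60 and 7.53. In both genes replicates 2 and 3 were high. The mean over 16 mitotic genes was also highest in replicates 2 and 3, with 7.53, 8.31, 8.49 and 7.12 in scar VFF, against 6.43, 6.38 and 6.60 in naive VFF. Of the 16, 13 were called higher (median log2 fold change 1.36), with the proliferation antigen Mki67 at 2.53. The S phase cyclin Ccna2 was at 2.82. Myoblast markers were not highest in replicates 2 and 3: their mean was 10.98, 5.92, 9.28 and 6.72 in the 4 scar cultures and 8.23, 5.79 and 8.94 in the naive ones. Their part in the result was not tested. In nucleoside salvage and breakdown 2 of 14 genes were called higher in scar VFF and 1 lower. The lower gene was Hprt1, the purine salvage enzyme (log2 -0.63, adjusted p = 0.00701).

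The targeted gene Serpinh1 was at 12.43, 12.64 and 12.67 with gp46 siRNA and at 12.98, 12.96 and 12.93 with scramble siRNA. The groups did not overlap, and the log2 difference of -0.38 had an unadjusted p of 0.00255 and an adjusted p of 1.00. With gp46 against scramble siRNA 0 of 41 members were called by limma (0% of all genes), 2 reached an unadjusted p under 0.05 (2.10% of all genes), and the lognormal-normal model called 0. Slbp, on its dim probe set, was at 4.46, 4.70 and 4.38 with gp46 siRNA, against 4.76, 4.79 and 4.80 with scramble siRNA (log2 -0.27 ± 0.11). The other Slbp probe sets gave 0.052 and -0.194. Chaf1a, the large subunit of chromatin assembly factor 1, was at 9.23, 9.02 and 9.18, against 9.32, 9.44 and 9.35 (log2 -0.23 ± 0.10). Slbp and Chaf1a, on the probe sets used, were the members with separate groups, 2 of 41 (4.88%, against 3.40% of all genes in that direction).

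The siRNA cultures as a whole stood far above the untreated ones. Scramble siRNA cultures were higher than untreated scar VFF for 39 of 41 members (limma; 16.5% of all genes were called higher), with a median log2 fold change of 1.66 and with groups that did not overlap for all 39 (18.7% of all genes). Cdt1, the licensing factor, was at 9.42, 9.67 and 9.52 with scramble siRNA, against 6.05, 6.58, 7.10 and 6.04 in untreated scar VFF, an 8.55-fold difference (log2 3.10 ± 0.22, adjusted p = 4.29e-06). Orc1 was at 6.63, 7.08 and 6.73, against 3.73, 3.98, 3.87 and 3.47 (8.31-fold, log2 3.05 ± 0.14, adjusted p = 7.64e-07). In both licensing genes the lowest siRNA culture was more than 2 log2 units above the highest untreated one.

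The next largest of these differences were log2 2.73 for Uhrf1, 2.69 for Gins1, 2.62 for Mcm6, 2.27 for Tk1, 2.26 for Rfc5 and 2.25 for Mcm5. On the probe sets used, the clamp and loader genes that had not passed in mucosa at 3 days PI were all called here. Pcna was at 12.76, 12.73 and 12.96, against 11.41, 11.47, 11.31 and 11.35 (log2 1.43 ± 0.07), and Rpa1 was higher by 1.14 ± 0.09. The exceptions were Slbp on its dim probe set (0.16 ± 0.10, adjusted p = 0.259) and Rrm1. The brighter Slbp probe set was higher by 0.80 (adjusted p = 0.0195), and the dimmest gave -0.151 (adjusted p = 0.307). Rrm1 was at 10.77, 10.92 and 10.90 with scramble siRNA, against 10.62, 10.45, 10.28 and 11.14 in untreated scar VFF (log2 0.24 ± 0.16, adjusted p = 0.298). The untreated cultures with the lowest Rrm1 values, replicates 2 and 3, had the highest values of Uhrf1, Mcm6 and Tk1.

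**Figure D4:**
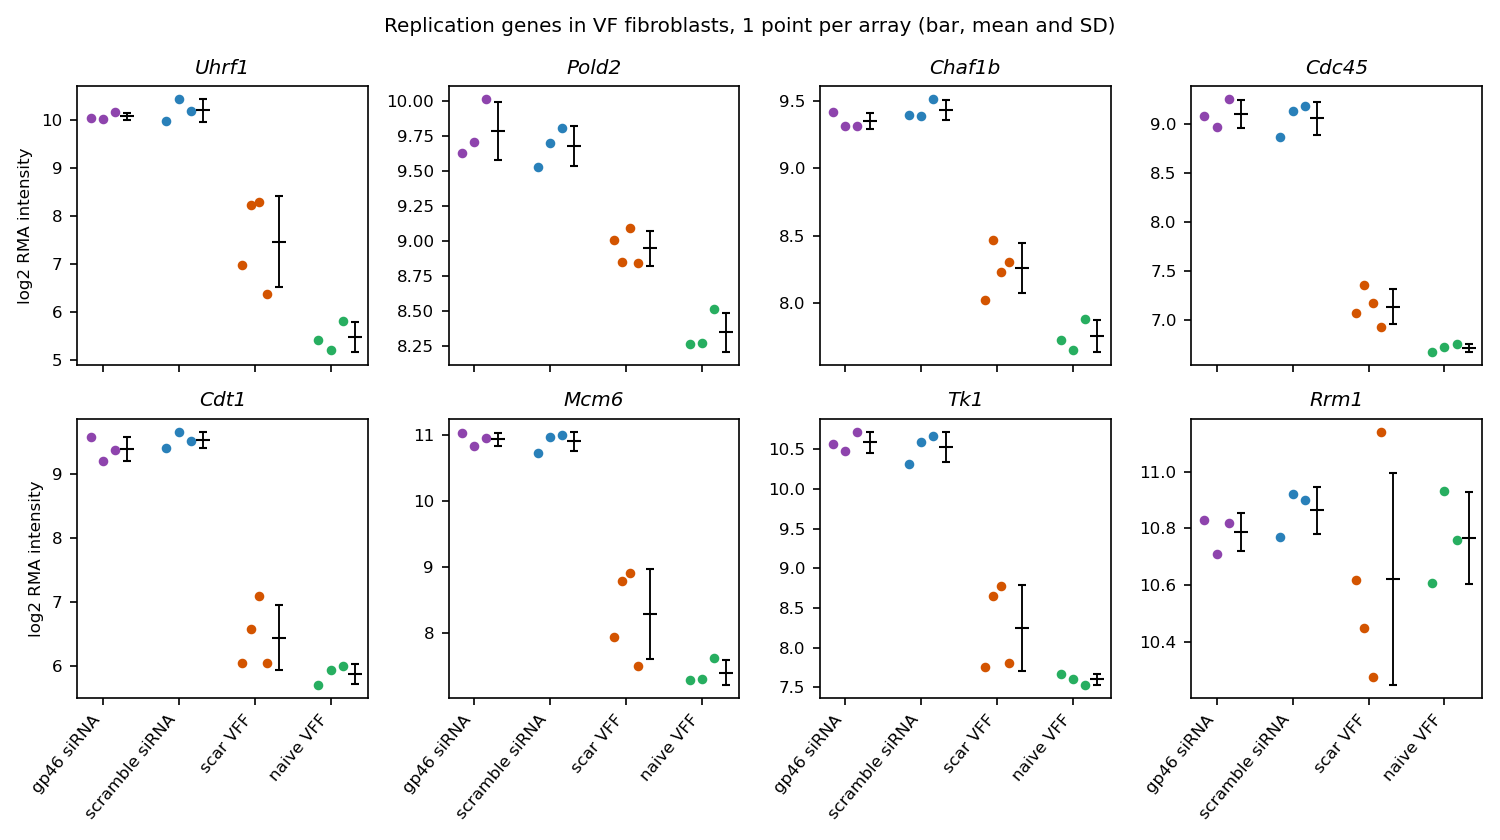
Log2 RMA intensity of 8 members in cultured VFF, 1 point per array with the group mean and SD beside the points, for gp46 siRNA (n = 3), scramble siRNA (n = 3), untreated scar (n = 4) and naive (n = 3) cultures. The siRNA cultures stand above the untreated ones in every panel except Rrm1, where untreated scar values run from 10.28 to 11.14 around them.

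All 16 mitotic genes were also higher in scramble than in untreated scar cultures (median log2 fold change 2.60; Mki67 3.46), as were 18 of 23 accessory origin and fork genes with 1 lower, and the cyclin-dependent kinase inhibitor Cdkn1c fell by 2.47 (adjusted p = 0.0138). Among de novo nucleotide genes 11 of 22 were higher and 3 lower, with Pfas, of purine synthesis, at 0.88. Of 8 fibroblast markers 5 were lower, with Col1a1 at -0.63. The 4 myoblast markers had log2 differences of -2.32 to -0.98, of which 0 passed the test, and their mean was 5.86 to 7.52 in scramble siRNA cultures and 5.92 to 10.98 in untreated scar VFF. The part of these markers in the replication result was not tested. The siRNA itself, the added 24 h of growth in fresh medium and any difference in when the cultures were run cannot be told apart in this comparison.

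**Figure D5:**
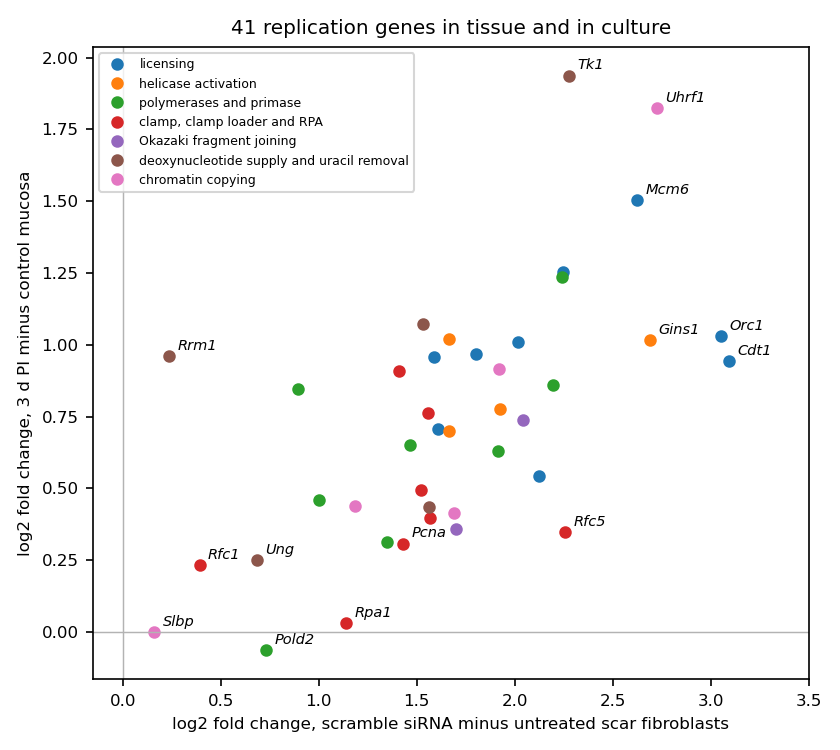
Log2 fold change at 3 days PI (vertical, PI minus control mucosa) against that of scramble siRNA minus untreated scar VFF (horizontal) for the 41 members, coloured by role. Both differences were large for Tk1, Uhrf1 and Mcm6, while Rrm1 was higher by 0.96 in PI mucosa and by 0.24 in scramble siRNA cultures.

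The members that rose most in injured mucosa tended to be those with the largest culture difference. Across the 41 members the 3-day PI effect and the scramble effect had a Pearson correlation of 0.62 (Spearman 0.63), against 0.18 (Spearman 0.18) across all 14217 genes. The points share the arrays of each contrast and genes are not independent replicates. Rfc5 was the reverse of Rrm1, at 0.35 in PI mucosa and 2.26 in culture. The other Rfc5 probe set gave 0.473 in PI mucosa and 1.835 in culture.

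Naive VFF, collected at 80% confluence, were set against 60-day control mucosa to place the naive cultures beside uninjured tissue of the same age. Of 41 members 6 were higher in the cultures (14.6%) and 12 lower (29.3%), while 36.1% of all genes were called higher and 26.1% lower. The share of members called lower was thus near that of all genes. Rrm1 was at 10.61, 10.93 and 10.76 in naive VFF, against 8.89 and 8.73 in control mucosa (3.89-fold, log2 1.96 ± 0.15, adjusted p = 8.04e-13). All 13 culture arrays (10.28 to 11.14) were above all 23 mucosa arrays (8.55 to 9.70) for this gene. Orc6 (1.02), Prim2 (0.99), Tyms (0.72), Chaf1b (0.52) and Pole2 (0.51) were the other members higher in culture. The calls for Tyms (adjusted p = 0.0823) and Pole2 (adjusted p = 0.052) were lost without 60-day control replicate 2.

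Uhrf1 led the members lower in naive VFF, with 5.42, 5.21 and 5.82, against 7.13 and 7.01 in control mucosa (log2 -1.59 ± 0.33, adjusted p = 0.000122). Lig1 (-1.08), Cdt1 (-1.06), Mcm6 (-0.99) and Pola1, the catalytic subunit of polymerase alpha (8.8e-07 as its adjusted p), were lower as well, with Mcm7, Gins1, Rfc5, Pcna, Dut, Dnmt1 and Rfc2 following at -0.92 to -0.37. The calls for Dut (adjusted p of 0.0677 and 0.0777) and Gins1 (0.0893 and 0.0515) were lost without 60-day control replicate 1 or 2, and that for Rfc2 without 60-day control replicate 1 (0.147) or naive replicate 1 (0.0658) or 2 (0.0502). The other Lig1, Rfc5 and Dut probe sets gave smaller differences of -0.099, -0.277 and -0.034, none past the threshold (adjusted p of 0.701, 0.133 and 0.884). Of the members not called, Rfc1, Slbp, Tk1 and Cdc45 each had another probe set past the threshold (-0.329, 0.662, 0.745 and 0.431). Of 16 mitotic genes 13 were lower in the cultures, with Mki67 at -3.85 and Aurkb at -4.35. Tissue and culture differ in cell types as well as in growth, since the epithelial markers were at 13.12 to 13.13 in this mucosa and 5.75 to 5.82 in the cultures.

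Over all 10 groups the highest mean of every member belonged to a siRNA culture group, gp46 for 23 members and scramble for 18. The lowest mean was that of naive VFF for 19 members and of 14-day control mucosa for 12. For Rrm1 the values of the 4 culture groups overlapped. The gp46 and scramble groups did not differ by the test in any member, the 3-day PI mucosa came below them in the mean over the members (8.49 to 8.80, against 9.71 to 9.91), and the remaining groups lay between 7.81 and 8.34.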

How the data were processed

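The authors deposited log2 values from RMA (affy, per the labels' processing notes, versions not given in the sources used here), normalized over all 36 Affymetrix arrays together; sorted values differed between arrays by at most 0.06. RMA puts every array on 1 distribution, so differences are relative to the other genes. Of 31099 probe sets, 57 controls were left out, and 20826 of the rest had 1 symbol (436 several, 9780 none). A gene took the probe set of median mean intensity (the larger of the middle pair where even), giving 14217 genes; 9 members had several probe sets. The array number limits the precision, and no depth applies.

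Mucosa (23 arrays) and fibroblast (13 arrays) groups were fitted with limma 3.58.1 in R 4.3.3 (all groups of each set, no block; all 36 arrays for naive VFF against mucosa), with Benjamini-Hochberg adjustment over all genes and a threshold of 0.05. The methods' EBarrays was not installed, and a lognormal-normal model with gene-specific variance (posterior over 0.95, 20 iterations) was an alternative. Scripts were tested on simulated data. Members and lists were chosen with earlier results of these data known. Each comparison names up to 8 called members of largest change, all called against the majority or where 5 or fewer were called, and 2 of largest change where none was; lists name up to 4 genes. The labels give 5 PI and 2 control arrays at 60 days, another split than the methods, and were followed. Every comparison with 60-day arrays therefore rests on the labels. Same-numbered gp46 and scramble cultures deviated together (r = 0.433, 0.176 and 0.472), so a block on these numbers was run as an alternative. It called 0 members, as did the reported fit, which had no block. Promoters were RefSeq windows on GRCr8. Alternatives were the probe set rule, a low-value filter, centring, renormalization, array weights, a variance trend, pooled controls, fits of fewer arrays, replicate blocks and leaving out each array.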

Additional observations from a re-analysis of the deposited data

Results flagged for a closer look

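The injury effect on the replication genes differed between time points by the test of the difference itself: 22 members between 3 and 14 days and 27 between 3 and 60 days, all larger at 3 days. Between the 3- and 14-day effects the log2 differences were 1.68 for Tk1, 1.48 for Uhrf1, 1.15 for Mcm6, 1.06 for Pole2, 1.06 for Mcm5, 0.99 for Tyms, 0.95 for Gins4 and 0.89 for Orc6. Between the 3- and 60-day effects they were 2.01 for Tk1, 1.74 for Mcm6, 1.55 for Uhrf1, 1.32 for Mcm5, 1.20 for Gins1, 1.17 for Gins4, 1.17 for Pole2 and 1.12 for Orc1. The 3- against 14-day call was lost for Gins4 without 3-day control replicate 3 (adjusted p = 0.0544) and for Orc6 without replicate 1 or 3 of the 3-day controls (0.0888 and 0.0584) or of the 14-day controls (0.06 and 0.0647), and on its probe set of highest mean (log2 0.65, 0.154). On the Tk1 probe set of highest mean the differences were smaller, 0.93 for 3 against 14 days and 1.08 for 3 against 60 days, and both kept the call. The 3- against 60-day call for Gins1 was lost without 3-day control replicate 1 (0.0641) or 3 (0.0507) or 60-day control replicate 1 (0.0913) or 2 (0.0548).

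In 16 of 168 sets of member values within a group of 4 or 5 arrays, 1 array stood apart from the others by Dixon's 95% limit; chance gives this in about 1 in 20, here 8.4. They gathered on 3 arrays. On 60-day PI replicate 4, 6 members were low, Prim1 at 8.19 (the highest other at 9.09), Pcna at 11.05, Rfc2 at 8.63, Rfc4 at 7.78, Rpa2 at 7.90 and Dut at 10.40, and Pola1 was high at 8.32. On 3-day PI replicate 5, 5 members were low: Gins4 at 8.45, Pold1 at 7.95, Pcna at 12.00, Rfc4 at 8.97 and Dut at 10.78. On scar VFF replicate 4, Mcm7 (9.22) and Rfc5 (8.72) were low. The remaining values were Pola1 at 8.83 on 3-day PI replicate 4 and Pole2 at 6.35 on 14-day PI replicate 2. Pcna, Rfc4 and Dut were low on both of the PI arrays that stood apart most often.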

How the results depend on the processing

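At 3 days PI the count of 34 members stayed between 27 and 37 under 12 alternatives and between 30 and 37 with 1 array left out. The 27 came from the low-value filter, which took members out of the test. The other alternatives gave 32 to 37. At 14 days it was 8 with array weights and 0 to 1 with 1 array left out (Mcm4, the member called in each such fit). At 60 days pooling the controls of all ages called 1 member, Rrm1 (log2 0.25, adjusted p = 0.0213). Array weights gave 36 members for the 3- against 14-day effect, in place of 22 (15 to 27 with 1 array left out), 3 across control ages, in place of 0, and 9 for scar against naive VFF, in place of 4. That last count was 0 with the arrays of the 2 groups alone, 0 with the replicate block and 0 to 12 with 1 array left out (0 without naive replicate 1 or 2, 12 without scar replicate 4). Same-numbered scar and naive cultures shared only a number (r = 0.096, 0.119 and 0.139); the block changed no other call count by over 1.5 times. Leaving out 1 array kept the 3- against 60-day count within 19 to 29 of 27, scramble against scar at 39 to 40, naive VFF against mucosa at 14 to 18 of 18, and gp46 against scramble, 60 days PI, 14 against 60 days and control ages at 0. Of the named members' values under alternatives, 1715 kept direction and side of the threshold, 43 lost the call, 2 gained it and 0 changed sign. The cause of these changes was not tested. Pools of 4 rats, 2 control arrays at 60 days and 3 or 4 cultures a group limit what can be seen, and Slbp and Orc1 were read from dim probe sets.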
